A study of Mus musculus with 24 samples.

Results

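Splenic B cells that lack the transcription factor NFATc1 (KO) were compared with control B cells (WT) after 3 h of anti-IgM, which crosslinks the B cell receptor. The comparison takes every array labelled with these conditions, 3 KO and 3 WT of the 24 arrays of the series. The other 18 arrays hold the same 2 genotypes at 0, 8 and 16 h, with 3 biological replicates in each of the 8 groups. In the KO mice exon 3 of Nfatc1 is flanked by loxP sites and removed by Cre recombinase under control of the Cd79a (mb-1) locus, which is active from early B cell development onward. The labels give the strain as C57BL/6, the age as 6-8 weeks and the tissue as spleen for both genotypes, call the controls WT, and state neither a Cre nor a loxP allele for them. Cells were stimulated and enriched for B cells on beads, and total RNA was hybridised to an Affymetrix mouse expression array, 1 array per sample. The labels do not say how many mice went into a sample.

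B cell receptor crosslinking raises intracellular calcium, which activates the phosphatase calcineurin. Calcineurin dephosphorylates NFAT proteins, which enter the nucleus and bind DNA at sites with the core GGAAA, often next to AP-1 proteins such as FOS and JUN. NFATc1 is induced by the same signal in lymphocytes, and Rcan1, which encodes an inhibitor of calcineurin, is a widely used NFAT target gene.

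At 3 h the expression of 7 genes was lower and that of 1 gene higher in KO than in WT cells. The lower genes were Sgk1, a kinase related to AKT, Twsg1, a secreted protein that binds bone morphogenetic proteins (BMPs), Adamts6, a secreted metalloprotease, and Ncf1, the p47phox subunit of the NADPH oxidase. Actn1, the actin crosslinker alpha-actinin 1, Tacc2, a microtubule-associated coiled-coil protein, and Anxa9, a member of the annexin family, were also lower. The higher gene was Rgs13, a regulator that shortens signalling by heterotrimeric G proteins and is known from germinal centre B cells. These 8 of 14318 genes tested make 0.0559% (0.00698% higher and 0.0489% lower) at a Benjamini-Hochberg adjusted p under 0.05 in limma, fitted over all 24 arrays. In the same fit 531 genes (3.71%) had an unadjusted p under 0.05. Without KO replicate 1, KO replicate 2, WT replicate 1 or WT replicate 2 no gene passed, while 442, 542, 529 and 546 had an unadjusted p under 0.05. Without KO replicate 3 or WT replicate 3, 7 genes passed in each case, of which 5 and 6 were among the 8. With each of 33486 probe sets tested on its own, 13 passed (0.0388%).

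Values are log2 of the MAS5 signal, differences are KO minus WT on that scale, and standard errors (SE) and adjusted p-values come from the limma fit. The filter level, the 40th percentile of an array's signals, lay between 5.51 and 5.74 on the 6 arrays. An exact permutation test of 3 arrays against 3 cannot give less than p = 0.1. Each array had the same trimmed mean signal, and correlations between the 6 arrays over all genes lay between 0.94 and 0.953, with the highest value between KO replicate 3 and WT replicate 3. WT replicate 2 carried an expression pattern of male cells, with Xist at 6.62 against 13.80 to 14.22 on the other 5 arrays and the Y-linked Eif2s3y at 10.96 but under the filter level on the other 5, and the replicates with number 2 of WT did so at all 4 times. Without those arrays no gene passed in limma, and 553 had an unadjusted p under 0.05. The 8 genes kept their directions without them, with differences from -3.23 to 1.12. The defining B cell markers were present on all 6 arrays, with 7 of 7 measured genes above the filter level and Ms4a1, which encodes CD20, at 13.95 ± 0.11 in KO and 13.97 ± 0.10 in WT (SD, n = 3).

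Promoter sequences of 3 of the 8 genes are shown because they cover the 2 genes with the smallest p and the gene with the opposite direction. Each is the 250 bases before the first start listed in RefSeq (GRCm38.p6), written 5′ to 3′ on the gene's strand, with capitals marking the NFAT core GGAAA or its reverse complement TTTCC. They are chr10:21881934-21882183 on the plus strand for Sgk1, which has 6 listed starts, chr17:65951188-65951437 on the minus strand for Twsg1, and chr1:144177373-144177622 on the minus strand for Rgs13.
Sgk1: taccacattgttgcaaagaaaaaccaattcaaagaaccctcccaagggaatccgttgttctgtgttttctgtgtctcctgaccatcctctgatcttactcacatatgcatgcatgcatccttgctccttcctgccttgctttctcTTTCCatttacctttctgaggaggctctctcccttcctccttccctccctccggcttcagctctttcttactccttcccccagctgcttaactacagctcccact
Twsg1: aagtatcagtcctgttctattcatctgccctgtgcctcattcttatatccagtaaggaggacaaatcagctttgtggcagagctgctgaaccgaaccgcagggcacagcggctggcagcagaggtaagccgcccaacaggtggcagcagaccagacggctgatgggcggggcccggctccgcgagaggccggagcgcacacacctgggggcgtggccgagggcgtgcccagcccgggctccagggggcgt
Rgs13: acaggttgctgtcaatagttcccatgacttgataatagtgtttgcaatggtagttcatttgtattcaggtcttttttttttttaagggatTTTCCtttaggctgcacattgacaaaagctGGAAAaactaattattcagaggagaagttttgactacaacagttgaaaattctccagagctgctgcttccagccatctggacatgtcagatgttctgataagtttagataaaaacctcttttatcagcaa
The core lay 105 bases upstream of the start in Sgk1 and 160 and 130 bases upstream in Rgs13, and these letters are not in this window of Twsg1. RefSeq promoters were at hand for 7 of the 8 genes, all but Adamts6. Of the 7, 4 held the core on either strand (Sgk1, Anxa9, Rgs13 and Tacc2), beside 55.6% of 27025 promoters of this length. The AP-1 motif TGAGTCA, or its reverse complement TGACTCA, was in 0 of the 7 and in 4.43% of all. The core and the AP-1 motif share no overlapping match in these windows, and a match describes the sequence alone.

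Sgk1, which acts downstream of phosphoinositide 3-kinase and mTOR complex 2, had signals of 9.43, 9.55 and 9.60 on the KO arrays and 10.99, 11.36 and 10.99 on the WT arrays. All KO arrays lay below all WT arrays, with a gap of 1.38 between the groups. The difference was -1.58 (SE 0.246, adjusted p = 0.0109), or 3.00-fold higher in WT. In WT its mean level at 3 h was close to that at 0 h (change -0.24, adjusted p = 0.494), and in KO it was lower at 3 h than at 0 h by a change of -0.85 (adjusted p = 0.0078). The KO arrays at 0 h spread widely, at 9.62, 10.88 and 10.63, and replicate 1 was already near the KO level at 3 h. The genotype difference before stimulation was -0.98 and did not pass (adjusted p = 0.326). Of the 14 measured genes of the PI3K, SGK and mTOR list, Sgk1 alone passed. Its paralogue Sgk3 differed by 0.04, the kinases Akt1 and Akt2 by 0.01 and 0.03, and the activating kinase Pdpk1 by -0.10.

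Twsg1 had signals of 9.42, 9.37 and 9.67 in KO and 10.69, 10.82 and 10.67 in WT. The KO arrays stayed within 0.30 of each other and the groups were 1.01 apart. The difference was -1.24 (SE 0.185, adjusted p = 0.0109), or 2.36-fold. From 0 to 3 h Twsg1 rose in both genotypes, by 1.48 in WT (adjusted p = 6.05e-07) and by 1.10 in KO (adjusted p = 3.56e-05). KO cells at 3 h were at 9.49 ± 0.16, close to the WT level of 9.24 before stimulation. Of its 3 other probe sets, 2 gave differences of -1.44 and -1.35 and the dimmest one -0.46. Among the 17 measured genes of the BMP and TGF-beta list it was the one called. The BMP type II receptor Bmpr2 was at 7.29, 7.14 and 7.24 in KO and 8.12, 8.40 and 7.74 in WT. Its difference of -0.86 did not pass (adjusted p = 1.0), nor did that of -1.19 at 0 h (adjusted p = 0.424). The BMP-induced Id1, Id2 and Id3 differed by 0.33, 0.29 and 0.00 at 3 h.

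Adamts6 was at 7.59, 7.36 and 7.64 in KO and at 9.02, 9.13 and 8.64 in WT. The lowest WT array was 1.01 above the highest KO array, and the difference was -1.40 (SE 0.224, adjusted p = 0.0111). Its second probe set differed by -0.94. The genotypes were close before stimulation (difference -0.22), and by 3 h the level had fallen by 1.58 in KO (adjusted p = 3.82e-06) against a change of -0.40 in WT (adjusted p = 0.176). The difference between these changes, -1.18 (SE 0.317), did not pass the test over all genes (adjusted p = 1.0).

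Ncf1 encodes the subunit that organises assembly of the NADPH oxidase, the enzyme complex that makes superoxide in phagocytes and also in B cells. Its signals were 11.62, 11.57 and 11.46 in KO and 12.30, 12.46 and 12.06 in WT, with no overlap. The difference was -0.72 (SE 0.123, adjusted p = 0.02), or 1.65-fold. All 3 of its probe sets gave nearly the same difference, -0.72, -0.72 and -0.74. Like Adamts6, Ncf1 was near equal before stimulation (-0.08) and had fallen by 0.83 in KO at 3 h (adjusted p = 7.07e-06), against a change of -0.19 in WT (adjusted p = 0.257). The difference between the changes was -0.64 (SE 0.174, adjusted p = 1.0).

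Ncf1 is abundant in neutrophils and monocytes, whose markers also varied over these arrays. Of 8 measured neutrophil markers none passed and 6 had negative differences, with a median of -0.65 against 0.009 over all genes tested. The log2 of their summed signals was 10.78, 9.38 and 11.61 on the KO arrays and 11.00, 11.53 and 11.54 on the WT arrays. Only 3 of the 8 were above the filter level on all 6 arrays. S100a8, an abundant neutrophil gene, was at 8.69, 5.71 and 9.16 in KO and 9.37, 9.75 and 10.09 in WT. Monocyte and macrophage markers had summed log2 signals of 11.12 to 11.71 in KO and 10.96 to 12.66 in WT, and none of 9 passed. The part of these cells in the Ncf1 difference was not tested, and in bulk RNA fewer cells of a type and less RNA per cell cannot be told apart.

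Actn1 was at 5.88, 5.68 and 6.39 in KO and at 8.42, 8.80 and 7.27 in WT. WT replicate 3 stood nearest to the KO arrays, which were close to the filter level. The difference was -2.19 (SE 0.402, adjusted p = 0.0316), or 4.55-fold. Actn1 rose by 1.45 from 0 to 3 h in WT (adjusted p = 0.00541), and its change in KO was -0.41 (adjusted p = 0.479). The difference between the changes was -1.87 (SE 0.569, adjusted p = 1.0). Both other probe sets lay near or under the filter level and differed by -1.08 and -1.50. None of the other 14 measured genes for actin crosslinking and severing passed, and the paralogue Actn4 was at 11.27 in KO and 11.16 in WT.

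Tacc2 and Anxa9 were under the filter level on every KO array, so for them only a bound can be given. Tacc2 was at 3.94, 3.95 and 4.36 in KO and at 6.19, 7.38 and 6.14 in WT. The measured difference was -2.49 (SE 0.46, adjusted p = 0.0316), and with each KO array at its filter level Tacc2 was at least 1.94-fold higher in WT. It rose between 0 and 3 h in WT from 2.41, under the filter level, to 6.57 (adjusted p = 9.57e-08). In KO the mean was 2.89 at 0 h and 4.08 at 3 h (adjusted p = 0.0426), both under the filter level. Anxa9 was at 2.96, 2.04 and 3.83 in KO and at 6.16, 5.45 and 6.19 in WT, and WT replicate 2 was itself under its filter level. The measured difference was -2.99 (SE 0.525, adjusted p = 0.0236), and the bound was at least 1.25-fold higher in WT. Anxa9 differed by 0.86 at 0 h, -0.11 at 8 h and -0.22 at 16 h. With signals under the filter level raised to it, the differences became -0.96 for Tacc2 and -0.40 for Anxa9 and neither passed.

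Rgs13 was at 11.33, 11.02 and 11.25 in KO and at 9.91, 9.50 and 10.26 in WT. All KO arrays were above all WT arrays, the nearest being WT replicate 3. The difference was 1.31 (SE 0.232, adjusted p = 0.0236), or 2.48-fold higher in KO. From 0 to 3 h Rgs13 rose in both genotypes, by 0.71 in WT (adjusted p = 0.0174) and by 1.46 in KO (adjusted p = 1.65e-05). Of 9 measured regulators of G protein signalling it was the one called. Rgs2, the next in p, was at 14.29, 14.06 and 14.21 in KO and 13.51, 13.26 and 13.76 in WT, a difference of 0.68 without overlap that did not pass (adjusted p = 0.601). The germinal centre markers Gcsam, S1pr2, Mybl1 and Fas differed by 0.24, 0.11, 0.47 and 0.39, with overlapping groups. Of the 5 measured germinal centre markers only 3, Rgs13, S1pr2 and Fas, were above the filter level on all 6 arrays.

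**Figure D1:**
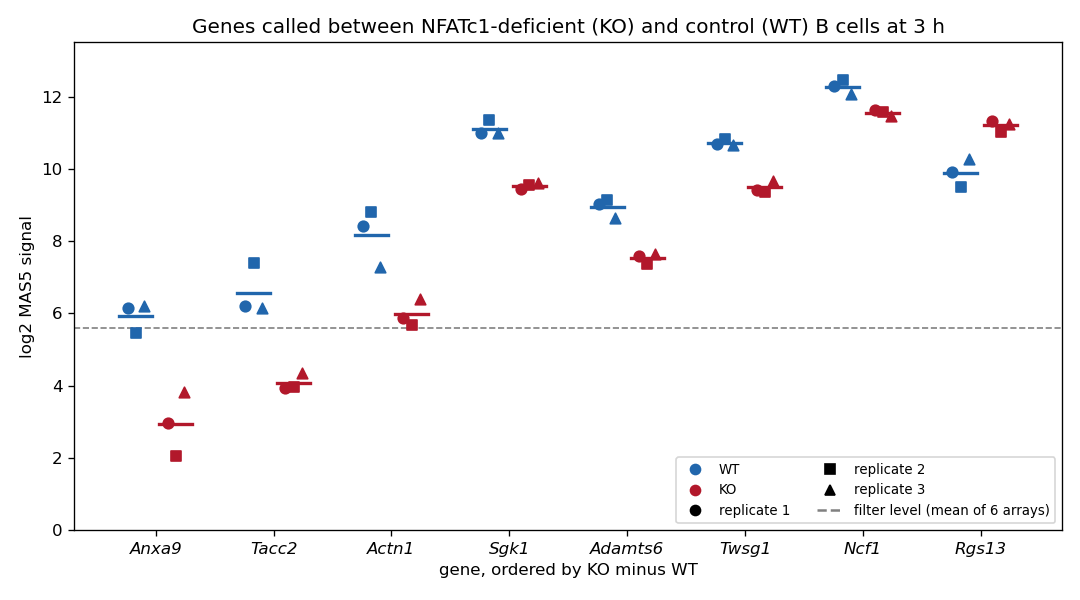
Log2 MAS5 signal (vertical axis) of the 8 called genes on each of the 6 arrays at 3 h, with WT in blue, KO in red, a symbol per replicate number and bars for group means. The groups do not overlap for any of the 8, and the KO points of Anxa9 and Tacc2 lie under the dashed filter level (5.60, mean of 6 arrays).

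Of the 8 genes, 7 had WT replicate 3 as the WT array nearest to the KO arrays, and 6 had KO replicate 3 as the KO array nearest to the WT arrays. Over the 1132 genes whose groups did not overlap (7.91% of all, 3.64% lower and 4.27% higher) these shares were 38.0% and 40.1%. The 8 genes also differed in brightness, from a KO mean of 2.94 for Anxa9 to 11.55 for Ncf1. The spread of differences over all genes fell with brightness, from an SD of 0.85 among genes under the filter level to 0.163 among genes above 12.

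**Figure D2:**
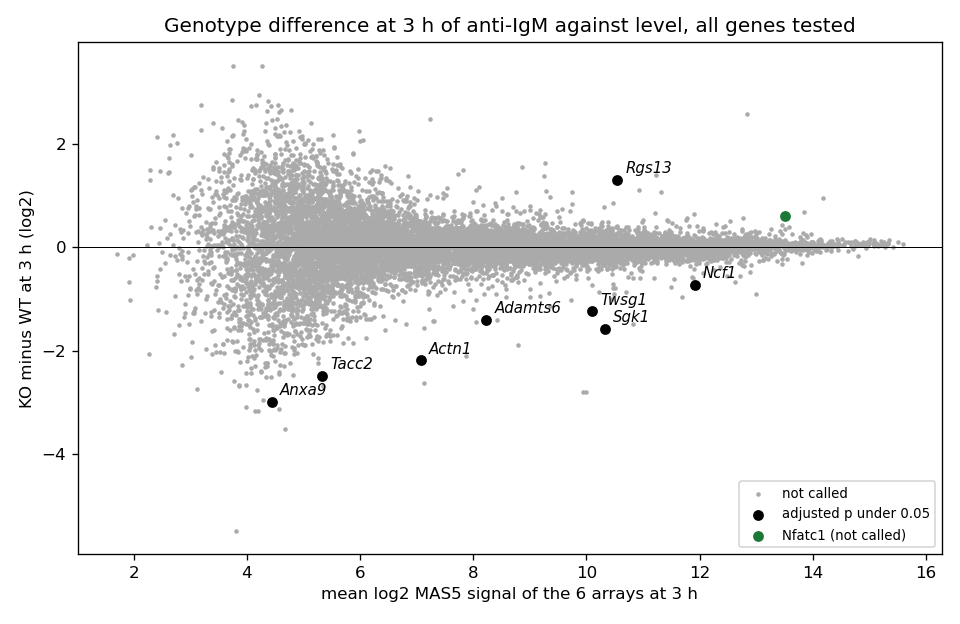
KO minus WT at 3 h (log2, vertical axis) against the mean log2 signal of the 6 arrays (horizontal axis) for the 14318 genes tested, with the 8 called genes in black and Nfatc1 in green. The cloud narrows with brightness, and many dim genes have differences as large as those of Anxa9 and Tacc2 without being called.

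Nfatc1 itself was not lower in KO cells on this array. Its brightest probe set was at 13.75, 13.95 and 13.76 in KO and at 13.21, 13.12 and 13.31 in WT, without overlap. The difference of 0.60 (SE 0.126) did not pass (adjusted p = 0.111). In the same limma fit this probe set was called higher in KO at 8 h (0.72, adjusted p = 0.014) and at 16 h (0.66, adjusted p = 0.0107). At 3 h the 4 other Nfatc1 probe sets differed by 0.41, 0.28, 0.39 and 0.10. The positions of these probes relative to the deleted exon are not given in the sources used here, so they do not check the deletion or the labels.

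None of the 16 NFAT and calcineurin genes measured passed, and their median difference was -0.02, beside 0.009 over all genes tested. The NFAT family members Nfatc2 and Nfatc3 differed by -0.01 and -0.06, and the calcineurin subunits Ppp3ca, Ppp3cb and Ppp3r1 by 0.06, -0.05 and -0.02. Nfat5, the family member regulated by osmotic stress rather than calcineurin, was at 10.09, 9.96 and 10.10 in KO and 10.22, 10.50 and 10.61 in WT, a difference of -0.39 that did not pass (adjusted p = 1.0). Rcan1 was at 8.77, 8.80 and 8.77 in KO and 8.88, 9.15 and 8.73 in WT. Its groups overlapped and the difference was -0.14 (SE 0.183, adjusted p = 1.0).

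Of 21 measured genes reported as NFAT targets, 0 passed in limma, 4 had an unadjusted p under 0.05 (3.71% of all genes), 10 differences were positive (51.9% of all genes) and 11 negative. The 4 were Egr2, Ifng and Prdm1, lower in KO, and Nfatc1 itself, higher in KO. Egr2, a zinc finger factor induced through NFAT in lymphocytes, was at 12.64, 12.58 and 12.41 in KO and 13.67, 13.68 and 12.99 in WT. The groups did not overlap, and the difference of -0.90 did not pass (adjusted p = 1.0). Egr2 rose from 0 to 3 h in both genotypes, from 8.26 ± 1.19 to 12.54 ± 0.12 in KO and from 9.95 ± 0.32 to 13.45 ± 0.40 in WT (SD, n = 3). Its relative Egr3 differed by -0.06, the orphan receptors Nr4a1 and Nr4a3 by -0.02 and -0.28, the factor Irf4 by 0.03 and the IL-2 receptor chain Il2ra by 0.02. Prdm1, the plasma cell factor BLIMP-1, was at 8.33, 8.60 and 8.48 in KO and 8.93, 9.37 and 8.81 in WT (-0.57, adjusted p = 1.0). Pdcd1, which encodes PD-1, was under the filter level on all 6 arrays, from 2.98 to 5.39.

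Ifng, the cytokine interferon gamma, was at 5.57, 6.42 and 7.06 in KO and at 7.75, 8.33 and 7.69 in WT, without overlap. The difference of -1.57 did not pass (adjusted p = 1.0). At 0 h the Ifng difference was -1.30 and did not pass either. T and NK cells are the usual sources of Ifng, and most of their markers were dim. The log2 summed signal of 8 T cell markers was 9.44 to 9.72 in KO and 9.15 to 9.35 in WT, higher in KO without overlap, and that of 8 NK and cytotoxic markers was 8.86 to 10.19 in KO and 8.79 to 9.39 in WT. Only 3 of the T cell and 2 of the NK markers were above the filter level on all 6 arrays. The CD3 chains of the T cell receptor complex did not move together. Cd3g was at 5.28, 3.26 and 1.54 in KO and 6.17, 5.41 and 5.74 in WT (-2.42, adjusted p = 1.0). Cd3e and Cd3d differed by 1.84 and 1.90 (adjusted p = 1.0 for both) at means under the filter level. The part of these cells in the Ifng difference was not tested.

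Many genes changed from 0 to 3 h in both genotypes. The labels list no cells cultured without anti-IgM, so effects of anti-IgM and of culture cannot be told apart. From 0 to 3 h, 5486 genes passed in WT and 5483 in KO (38.3% each), higher for 17% and 16.6% of genes and lower for 21.3% and 21.7%. Of the genes that rose, 2100 were shared, 86.1% of those in WT and 88.3% of those in KO, and of the genes that fell, 2610 were shared, 85.7% and 84.1%. No gene passed in opposite directions. Of the 2439 genes that rose in WT, 3 were called lower in KO at 3 h (Twsg1, Actn1 and Tacc2) and 1 was called higher (Rgs13). Of the 8832 genes not called between 0 and 3 h in WT, 4 were called lower in KO at 3 h. Over all genes tested 0.0489% were called lower and 0.00698% higher. The WT arrays at 3 h enter both comparisons, so the rise in WT and the call are not independent.

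The 25 immediate early transcription factors held no called member, with 15 positive and 10 negative differences and a median of 0.07. Myc was at 13.37 ± 0.14 in KO and 13.46 ± 0.16 in WT, and Egr1 at 13.22 ± 0.30 and 13.06 ± 0.28 (SD, n = 3). The 16 activation and costimulation markers had 13 positive differences and a median of 0.19, with 0 called. The early activation antigen Cd69 differed by -0.13, Cd86 by 0.14 and Cd83 by 0.09, and the largest was the signalling receptor Slamf1. Slamf1 was at 8.99, 8.61 and 8.83 in KO and 8.01, 7.68 and 8.34 in WT (0.80, adjusted p = 0.284). Of 12 NF-kB subunits and feedback genes 10 differences were negative, and they were small, with a median of -0.05 and the lowest at -0.30 for Nfkb2. Over all genes tested 51.9% of differences were positive.

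Negative feedback genes of the MAP kinase pathway gave a median of -0.13 over 10 members with 0 called. The lowest was Spry1, an inhibitor of receptor signalling to RAS, at 6.43, 6.17 and 5.64 in KO and 7.95, 8.40 and 6.32 in WT. Its groups overlapped at WT replicate 3 (-1.48, adjusted p = 0.903). Among 20 ribosome biogenesis genes, which anti-IgM is known to induce, the median was 0.01 and the lowest difference -0.27. Of 15 mitotic genes 13 differences were positive (median 0.19) and of 17 BCL2 family and death receptor genes 13 were (median 0.12). Of 12 MHC class II presentation genes 11 were positive (median 0.16), and no member of these lists was called.

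Of 22 genes of B cell receptor signalling none was called, and the median was 0.00. The 2 lowest were close to the threshold or clear of the WT range. Pik3cd, the delta catalytic subunit of phosphoinositide 3-kinase, was at 9.44, 9.84 and 9.92 in KO and 10.27, 10.55 and 10.53 in WT (-0.72, SE 0.142, adjusted p = 0.0696). The guanine nucleotide exchange factor Vav3 was at 7.66, 7.44 and 6.81 in KO and 8.66, 8.33 and 8.02 in WT (-1.04, adjusted p = 0.262). The receptor components Cd79a and Cd79b, the kinases Syk and Btk and the phospholipase Plcg2 differed by -0.41, -0.20, -0.02, -0.02 and 0.15, with overlapping groups.

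**Figure D3:**
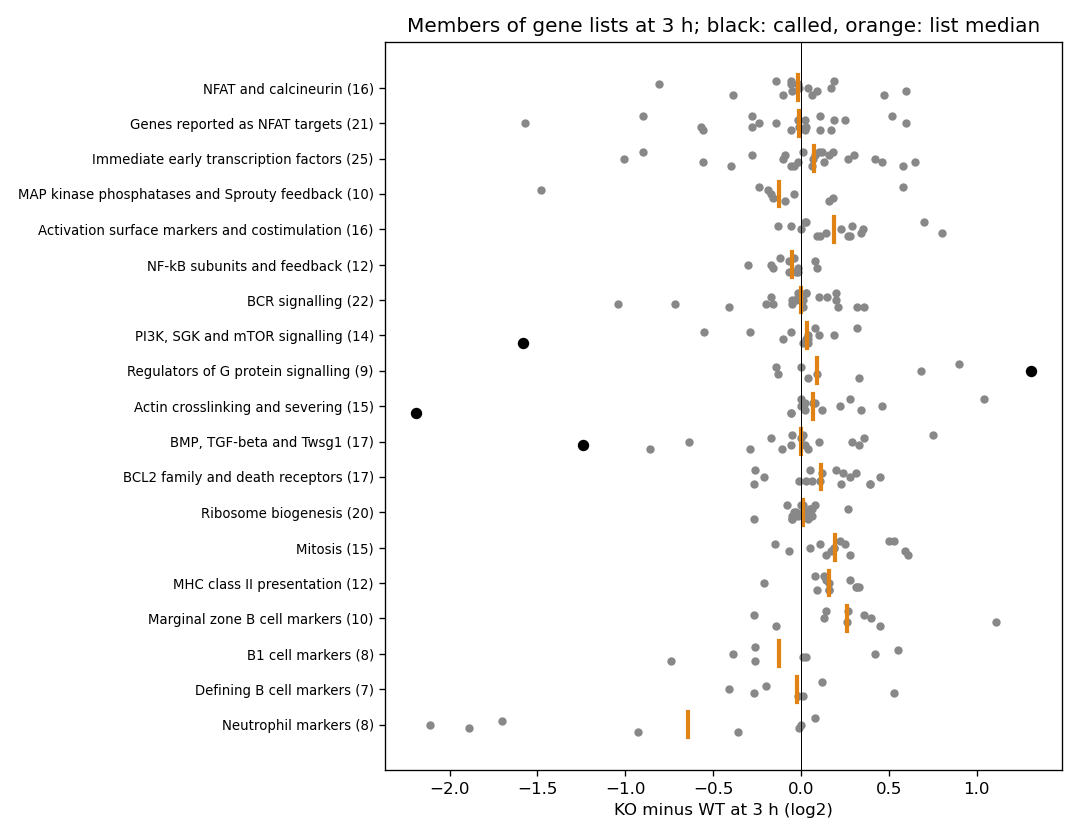
KO minus WT at 3 h (log2, horizontal axis) of the measured members of 19 gene lists, with the number of members in brackets, called members in black and the list median as an orange bar. Sgk1, Actn1 and Twsg1 are the lowest members of their lists and Rgs13 the highest of its list. The neutrophil median is -0.65, and the other 18 medians lie between -0.13 and 0.26.

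Over all 45 lists 479 of 538 genes were measured and tested, and 4 passed, against 0.0559% of all genes: Sgk1, Twsg1 and Actn1 lower and Rgs13 higher. The lists were chosen with earlier results of these data known, and some were built around these genes, so the count says nothing about the lists. Marginal zone markers, of which 8 of 10 differences were positive with a median of 0.26, had none called. Their highest was Cd36, a scavenger receptor, at 11.54, 11.57 and 11.34 in KO and 9.65, 10.72 and 10.75 in WT (1.11, adjusted p = 0.371). The complement receptor Cr2 differed by 0.36, and the summed log2 signal of the list was 14.76 to 15.03 in KO and 14.54 to 14.71 in WT. Of 8 B1 cell markers 4 were positive, with a median of -0.13 and 0 called, and of 5 transitional markers all were negative with a median of -0.14 and 0 called. Of 5 plasma cell markers 3 were positive and 2 negative, with a median of 0.03 and 0 called. Their lowest was Prdm1 (-0.57) and their highest Jchain, the immunoglobulin joining chain. Jchain was at 12.53, 12.13 and 11.15 in KO and 10.19, 10.45 and 10.92 in WT (1.41, adjusted p = 0.481). The part of such subset markers in the called differences was not tested.

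Next come the uncalled genes with the smallest p and both means above the filter level. They were picked by p on these same arrays, so their separated groups follow largely from that choice. Over all genes tested 7.91% had groups that did not overlap. Myb, a transcription factor of immature and cycling lymphocytes, was at 10.73, 11.26 and 11.65 in KO and 12.08, 12.10 and 12.35 in WT (-0.97, SE 0.204, adjusted p = 0.119). The metalloprotease Adam10, which cleaves NOTCH2 and CD23 in B cells, was at 11.95, 12.25 and 12.43 in KO and 12.65, 12.80 and 12.85 in WT (-0.56, adjusted p = 0.374). Ndfip1, an activator of NEDD4-family ubiquitin ligases, was at 12.65, 12.70 and 12.60 in KO and 13.14, 13.31 and 12.90 in WT (-0.47, adjusted p = 0.308). Fam53b, Tmtc4 and Atg16l2 differed by -0.91, -0.79 and -0.48. Higher in KO without passing were Atxn1 (1.11), Cenps (1.01), Fam78a (1.06), Tmcc3 (1.16) and Tex2 (0.86), with adjusted p between 0.155 and 0.284. Before stimulation Cenps was already called higher in KO (1.29, adjusted p = 0.0258). The 0 h differences of Atxn1, Fam78a, Tmcc3 and Tex2 were 0.98, 0.10, 0.76 and 0.11 and did not pass.

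Some larger differences did not pass. Of 26 genes with a mean above 8 and a difference over 1 in size, 4 were called, and 13 of the 22 others had overlapping groups. Over all genes tested the groups of 7.91% did not overlap, so overlap was less frequent among these large differences than over all genes. The potassium channel gene Kcnq5 was at 8.32, 7.50 and 9.93 in KO and 11.51, 12.76 and 9.92 in WT (-2.81, adjusted p = 1.0), with both replicates 3 at nearly the same level. At 0 h the Kcnq5 difference was -2.94 and did not pass. Slc15a2, a peptide transporter chosen after its values were seen, was at 9.66, 5.06 and 10.91 in KO and 11.56, 11.20 and 11.27 in WT (-2.80, adjusted p = 1.0), and KO replicate 2 set most of that difference.

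The genotype differences of the called genes were set beside those at the other times, which come from other arrays. These arrays may not be independent samples. The labels do not say whether replicates with the same number share mice over time, and WT replicate 2 had male-type expression at every time. Actn1 differed by -0.32 at 0 h, -3.19 at 8 h and -3.21 at 16 h, Adamts6 by -0.22, -1.34 and -1.07, and Ncf1 by -0.08, -0.57 and -0.50. Twsg1 differed by -0.86, -1.26 and -1.04, Sgk1 by -0.98, -1.56 and -1.52, and Rgs13 by 0.56, 1.81 and 1.59. At 8 h and at 16 h all of these except Ncf1 passed (Ncf1 adjusted p = 0.0855 and 0.0723). Tacc2 differed by 0.47, -1.68 and -1.16 and passed at none of the 3 other times. Of the 5 genes called at 0 h (0.0349%), all had the same sign at 3 h and none was called.

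Of the 14 genes called at 8 h (0.0978%, with 0.0559% higher and 0.0419% lower), all had the same sign at 3 h. The 6 lower ones had a median of -1.32 at 3 h and -1.45 at 8 h and 4 of them were called at 3 h, and the 8 higher ones had a median of 0.57 at 3 h and 0.97 at 8 h, with Rgs13 called. Of the 88 genes called at 16 h (0.615%, with 0.426% higher and 0.189% lower), 52 of 61 higher and 24 of 27 lower ones had the same sign at 3 h. Their median differences were 0.21 at 3 h against 0.98 at 16 h for the higher genes and -0.56 against -1.31 for the lower genes. The sizes at 8 and 16 h were selected by the calls there. Vsir, which encodes the inhibitory receptor VISTA, illustrates genes called later, at 8.82, 8.72 and 8.59 in KO and 9.49, 10.12 and 9.34 in WT at 3 h (-0.94, adjusted p = 0.847) and with differences of -1.62 at 8 h and -1.90 at 16 h.

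Whether the genotype difference itself differed between 3 h and another time was tested for every gene. No gene passed in limma for 3 h minus 0 h, 8 h minus 3 h or 16 h minus 3 h, and 330 (2.30%), 332 (2.32%) and 495 (3.46%) had an unadjusted p under 0.05. Rcan1 came nearest at 16 h minus 3 h. Its mean was 8.78 ± 0.02 in KO and 8.92 ± 0.21 in WT at 3 h, and 9.33 ± 0.23 and 11.03 ± 0.32 at 16 h (SD, n = 3). The change in its genotype difference was -1.56 (SE 0.259, adjusted p = 0.0566), and it passed in 9 of 25 alternative settings, over which the adjusted p ranged from 0.0124 to 1.0. Pdcd1 was lower in KO at 16 h (-3.29, adjusted p = 0.0221), and the change in its genotype difference from 3 h was -2.74 (SE 0.992, adjusted p = 1.0). It passed with signals raised to the filter level (-3.31, adjusted p = 2.94e-05) and with log2(signal + 50) (-2.75, adjusted p = 0.000668), settings that compress values as dim as its 3 h signals.

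**Figure D4:**
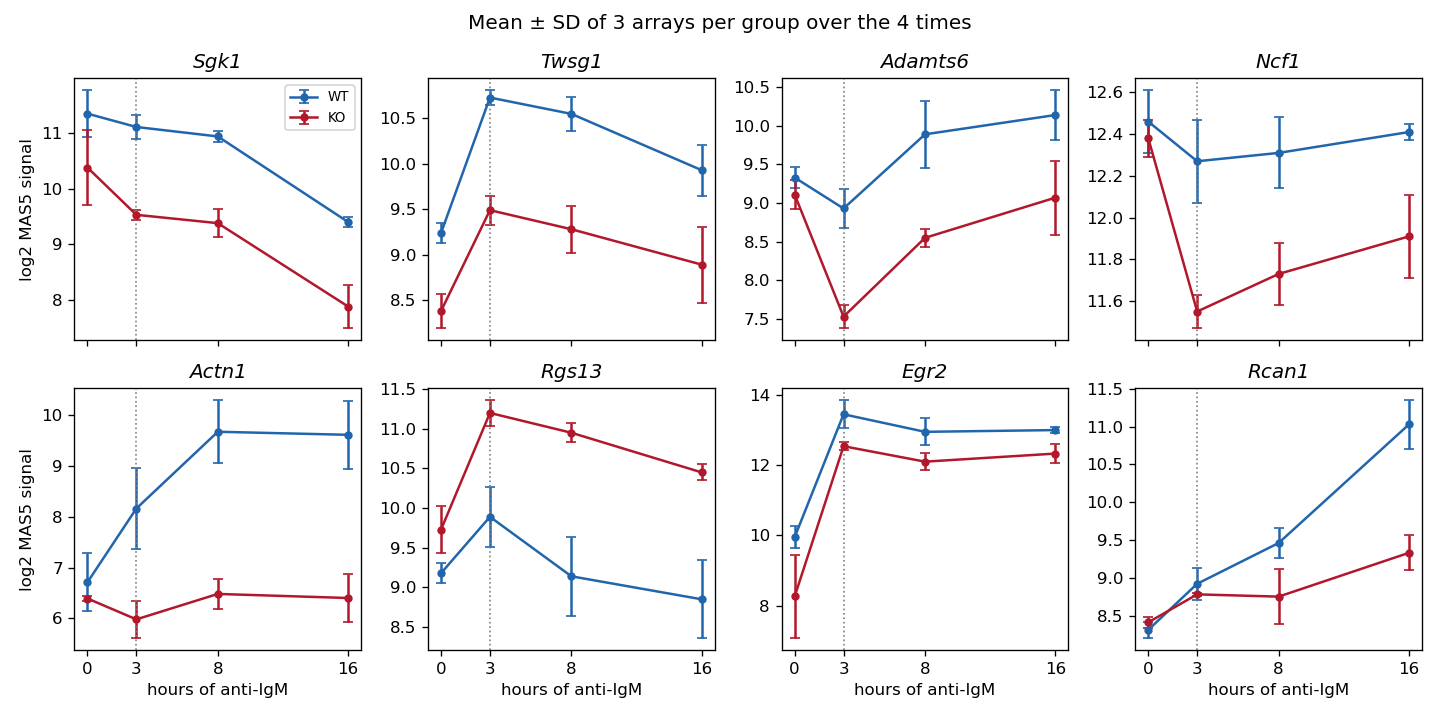
Mean ± SD (n = 3) of the log2 MAS5 signal (vertical axes, which differ in range) against hours of anti-IgM for 8 genes in WT (blue) and KO (red), with a dotted line at 3 h. Adamts6, Ncf1 and Actn1 were near equal at 0 h and apart at 3 h, Sgk1, Twsg1 and Rgs13 were apart by smaller amounts at 0 h, Egr2 rose in both genotypes, and Rcan1 separated after 3 h.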

How the data were processed

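Log2 signals of 24 arrays were used as deposited. Per the submitters' processing notes the authors computed the signals with MAS5, and the version and genome build are not given in the sources used here. The deposited log2 values back-transform to signals of 1 decimal in 100% of values under 50 (tolerance 0.002). MAS5 scaling to a common mean hides any change in total RNA, and no detection calls were used.

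Of 45101 probe sets, 64 were controls. A probe set was kept when above the 40th percentile of its array in at least 3 arrays, and the brightest of the kept probe sets with 1 gene symbol stood for its gene, which gave 14318 genes. Probe sets with several or no symbols (932 and 9211) were left out. Limma 3.58.1 in R 4.3.3 fitted 1 mean per group over all 24 arrays (eBayes with trend, 16 residual degrees of freedom), and genes passed, or were called, when the p adjusted by Benjamini-Hochberg was under 0.05. The fit was tested on simulated data. Nothing states that replicates with the same number share a mouse. The number of arrays limits the precision.

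Members, the 45 gene lists and the rule for naming genes were chosen with earlier results of these data known. The rule names all Nfatc1 probe sets, the called genes, the 8 higher and 8 lower uncalled genes of smallest p, any member of both NFAT lists, up to 3 members of each other list, and genes called at 8 and 16 h. Other list members were named after their values were seen. The bound for genes under the filter level sets the WT mean against the mean of the KO arrays' filter levels. Alternatives were other scalings, filters, floors and offsets, replicate blocks, the compared groups alone, no trend, a minimum of 1.5-fold, single probe sets and left-out arrays.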

Additional observations from a re-analysis of the deposited data

Results flagged for a closer look

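Outside the genes tested, 3 probe sets without a single gene symbol passed in limma when each of 33486 probe sets was tested on its own (13 passed). Probe set 1446784_at, not listed with a gene, was at 7.60, 7.01 and 7.28 in KO and 8.58, 8.98 and 8.49 in WT, a difference of -1.39 (adjusted p = 0.00665). Probe set 1453752_at, listed with several genes, was at 8.73, 8.61 and 8.70 in KO and 10.63, 10.10 and 10.03 in WT, a difference of -1.58 (adjusted p = 0.00665). Probe set 1451760_s_at, also listed with several genes, was at 6.64, 6.47 and 5.90 in KO and 4.29, 4.11 and 4.79 in WT, a difference of 1.94 (adjusted p = 0.0392), with all WT arrays under the filter level.

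Another case fell inside a gene. Probe set 1426573_at of Me2, a mitochondrial malic enzyme, was at 7.77, 8.14 and 8.01 in KO and 9.17, 9.52 and 9.37 in WT, a difference of -1.38 (adjusted p = 0.00665). The 3 other Me2 probe sets differed by 0.02, 0.33 and 0.13, and the brightest of them stood for the gene. It was chosen after its values were seen.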

How the results depend on the processing

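The 8 calls at 3 h changed in number with most alternatives, while the 8 genes kept their direction in every setting run. The count was 7 with quantile normalization, without a filter, with a filter at the 60th percentile or on the 6 arrays, 6 with signals raised to the 40th percentile and 9 with genotype and replicate as a random block. It was 3 (0 higher, 3 lower) with median scaling, 5 with log2(signal + 50), 2 with only the compared groups and 2 without trend. It was 0 against a minimum of 1.5-fold (115 at an unadjusted p under 0.05), 0 without the arrays of male-type expression, and 13 probe sets with each on its own. Leaving out 1 array of 3 h gave 0 to 7 genes. With the replicate number as a fixed block 21 genes passed, 7 higher and 14 lower, with all 8 among them, and with only the compared groups and that block, chosen after seeing the data, 22 passed, 10 higher and 12 lower, with 5 of the 8 among them. Deviations of same-numbered KO and WT arrays correlated at 0.033, 0.06 and 0.165 over all genes and at 0.084, 0.156 and 0.339 over the 11008 genes above the filter level. Number 1 stayed under 0.1 in both. The labels do not say that the numbers pair the arrays, and the main fit left them unpaired. Over the brighter genes each array correlated best with its own number, a hint from the data and not the design, whereas over all genes WT replicate 1 correlated better with KO replicate 2 (0.04). The cause of these changes was not tested.

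Calls held unevenly over the genes. Of the settings that left no single array out, Twsg1 passed in 11 of 14, Sgk1 and Adamts6 in 10, Ncf1 and Rgs13 in 9, Actn1 in 8, Tacc2 in 6 and Anxa9 in 4 of 12. The 3 h minus 0 h count of 0 became 2 without WT replicate 2 at 0 h (Tacc2 and Zbed5, 0 to 2 over left-out arrays). The 8 h minus 3 h count stayed at 0 in each setting run. The 16 h minus 3 h count of 0 became 1 with the 60th percentile filter, with the filter on the 6 arrays and with the random block, 3 with raised signals, 2 with log2(signal + 50), 4 with the replicate block, and 0 to 2 over left-out arrays. Under the filter level, signal over background sets the limit on what can be seen.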
